A study of Mus musculus with 18 samples.

Results

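The top 400 CLK:BMAL1 sites are a subset ranked highest by the authors among the sites they listed for CLK and BMAL1 in mouse liver, and are described here across all assays of the series. The members were chosen by the authors: the profiles analysed are those that their table names for its top 400 peaks, which are 12.4% of the sites in the profile table. The separate site table lists 3217 sites, 1 more than the profile table. Each profile is a mean over the sites of the set in a single library, so all 400 members enter every value and no member has a ChIP value of its own. The remaining sites, called the other sites below, were obtained per library and position by taking the top sites out of the mean over all sites. The sources used here do not state which measured values ranked the sites. A CLK signal higher at the top than at the other sites may therefore be what chose them, and it is given below as a description with no test.

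CLK (CLOCK) and BMAL1 are basic helix-loop-helix proteins that pair up and bind E-box sequences in DNA. The pair drives transcription of Per, Cry and Rev-erb genes, whose products act back on it, so that its binding to DNA in liver cycles over the day with a maximum in the middle of the light phase. The series title describes the pair as pioneer-like, a term for factors that reach their sites on DNA wrapped in nucleosomes. Micrococcal nuclease (MNase) digests the DNA between nucleosomes and leaves the wrapped DNA, whereas sonication breaks chromatin with little regard to nucleosomes. ChIP on both kinds of chromatin asks whether CLK is recovered on nucleosome-sized pieces.

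All libraries came from livers of adult C57BL/6 mice, 3 to 6 months old, with no transgene or deletion named, kept for at least 2 weeks in cycles of 12 h light and 12 h dark. Livers were taken at ZT06, the middle of the light phase, or at ZT22, late in the dark phase. There were 6 groups of 3 libraries, each numbered as mice 28, 29 and 30: MNase-digested and sonicated chromatin, each with CLK antibody, plus sonicated input, at both times. Input is chromatin that was not immunoprecipitated, and MNase-digested chromatin had no matched input here. Crosslinked liver nuclei hold several cell types in a mixture, and profiles of DNA carry no marker by which the tissue could be checked. Nothing in the labels says that a number is the same animal at both times, since a liver is taken once. The p-values of the exact tests below measure the spread between these livers. Those of limma, a linear model fitted to each position, measure the spread between libraries within groups. It took all libraries as independent and did not pair those from the same liver.

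The members of the top set are not named in the profile table, but the site table numbers the sites from 1 to 3217. Peaks with low numbers were wider, with a Spearman rank correlation of -0.52 between number and peak width across the 3217 sites. Sites numbered 1 to 400 had a mean peak width of 401.4 ± 97.7 bp (SD over sites), against 308.3 ± 84.03 bp for the other 2817. Whether numbers 1 to 400 are the 400 top sites is not stated, so their features describe the low-numbered sites only. Across the presumed limit the widths overlapped: sites 399 and 400 were 0.399 and 0.269 kb wide, and sites 401 and 402 were 0.229 and 0.349 kb wide.

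Among sites 1 to 400, 89 lay in the transcription start site (TSS) class, 22.3% (exact 95% interval 18.3 to 26.6%), against 17.5% (16.1 to 18.99%) of the rest. Introns held 42.8% (37.8 to 47.8%), against 44.1% (42.2 to 45.9%) of the rest. Intergenic sites beyond 10 kb from a gene made up 74 of sites 1 to 400, 18.5% (14.8 to 22.7%), against 22.8% (21.3 to 24.4%) of the rest. Nearer intergenic sites made up 38 of sites 1 to 400, 9.5%, against 9.09% of the rest. Each of these classes thus held sites from both parts of the list. The intervals overlapped in each of these classes with an interval given, which does not show that the shares were equal. The TSS share of sites 1 to 400 was the highest of any full block of 400 numbers, the later ones having 14.25 to 18.75%. They lay closer to further sites: the 3 kb regions of 26.8% of them (22.5 to 31.4%) overlapped another listed region, against 18.6% (17.1 to 20.1%) of the rest, and these intervals do not overlap. The outer parts of a profile therefore contain neighbouring sites, more often for the low numbers.

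**Figure D1:**
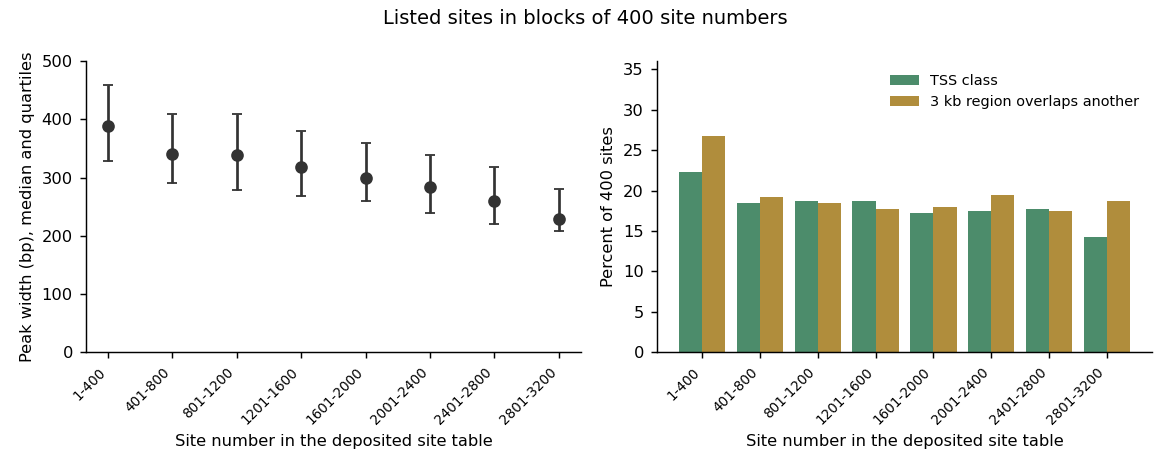
Listed sites in blocks of 400 site numbers, with peak width in bp on the left (points are medians, bars the quartiles) and the percent of sites in the TSS class or with an overlapping 3 kb region on the right. The median width falls from 389 bp in the first block to 229.5 bp in the block of numbers 2801 to 3200, and among these 8 full blocks the first has the highest share of overlapping regions, 26.8%; the last 17 sites are not drawn.

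The first 5 sites of the table illustrate this crowding, in mm9 coordinates. Site Koike_CLKBMAL1_P0001, the widest of the first 400 at 719 bp, lay in the TSS class on chromosome 7 from 52960041 to 52960760. Site Koike_CLKBMAL1_P0005, of 619 bp and intronic, lay on the same chromosome from 52962811 to 52963430, and the 3 kb regions of both overlapped another listed region. The midpoint nearest to that of P0001 was 1065 bp away, inside its 3 kb region. Site Koike_CLKBMAL1_P0002 was intergenic within 10 kb of a gene by its class, on chromosome 11 from 68908211 to 68908501, with the nearest other midpoint 314.5 bp away. Site Koike_CLKBMAL1_P0003, in the same class on chromosome 11 from 98644571 to 98645021, stood free of other regions, with the nearest midpoint 5649.5 bp away. Site Koike_CLKBMAL1_P0004, in the TSS class on chromosome 3 from 95686051 to 95686501, had its nearest neighbour 350.0 bp away. The narrowest of the first 400, site Koike_CLKBMAL1_P0386 of 0.219 kb, was an intronic site on chromosome 8 from 73108111 to 73108330.

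The depth behind the top profiles was estimated from the values, on the assumption that a mean over 400 sites moves in steps of 1 fragment. In all 18 libraries, 94.3 to 100% of the distinct values were whole multiples of a step, within 7e-05 of signal. For a single step fixed beforehand, chance gives 0.629 to 13.96%. The step was searched for among many, so the share by chance is higher than this. At the midpoint of the top sites, sonicated ChIP at ZT06 rested on 1829, 2530 and 2198 fragments in mice 28, 29 and 30. At ZT22 it rested on 615, 2002 and 375, so the ZT22 library of mouse 30 was the shallowest of all. Inputs had 1636 to 2569 fragments there and MNase-digested ChIP 5001 to 6855. Intervals from these numbers cover counting error only. In the sonicated ZT22 ChIP of mouse 29, 1 fragment per site stood for 0.683 of signal, within the range of the inputs (0.568 to 0.949). In the other sonicated ChIP libraries it stood for 2.86 to 8.90. The cause was not tested. The ZT22 ChIP libraries of mouse 30 had the highest central value of the 3 livers in sonicated chromatin and the lowest in MNase-digested chromatin. The tests at the top sites that use them are given with and without them, and other ZT22 values by mouse where these libraries move them.

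At ZT06, sonicated CLK ChIP formed a tall, narrow peak over the top sites. Within 100 bp of the midpoint, called the centre, the deposited signal was 17.2, 17.5 and 19.4 in mice 28, 29 and 30. In the flanks, at least 1000 bp away, it was 3.13, 3.06 and 3.16. The libraries were close to each other, and centre to flanks, a ratio that no scaling of a whole library changes, was 5.48, 5.71 and 6.13. For the other sites the same libraries had ratios of 2.66, 2.58 and 2.82, all below every value of the top sites.

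The peak at the top sites declined quickly with distance. Averaged over both sides and relative to the flanks, the ZT06 signal was 5.98 ± 0.75 (SD, n = 3) at the midpoint, 5.02 ± 0.15 at 100 bp and 3.12 ± 0.08 at 200 bp. At 300 bp it was 1.88 ± 0.14, at 500 bp 1.25 ± 0.13 and at 600 bp 0.99 ± 0.16, level with the flanks. The width at 50% of the height above the flanks was 340, 290 and 310 bp in mice 28, 29 and 30, against 300, 350 and 320 bp at the other sites. The mean widths, 313 ± 25 bp at the top and 323 ± 25 bp at the other sites, differed by less than the spread between libraries: the peak was taller at the top sites and about as wide. The maximum lay 20 to 60 bp to the left of the midpoint in the 3 libraries.

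**Figure D2:**
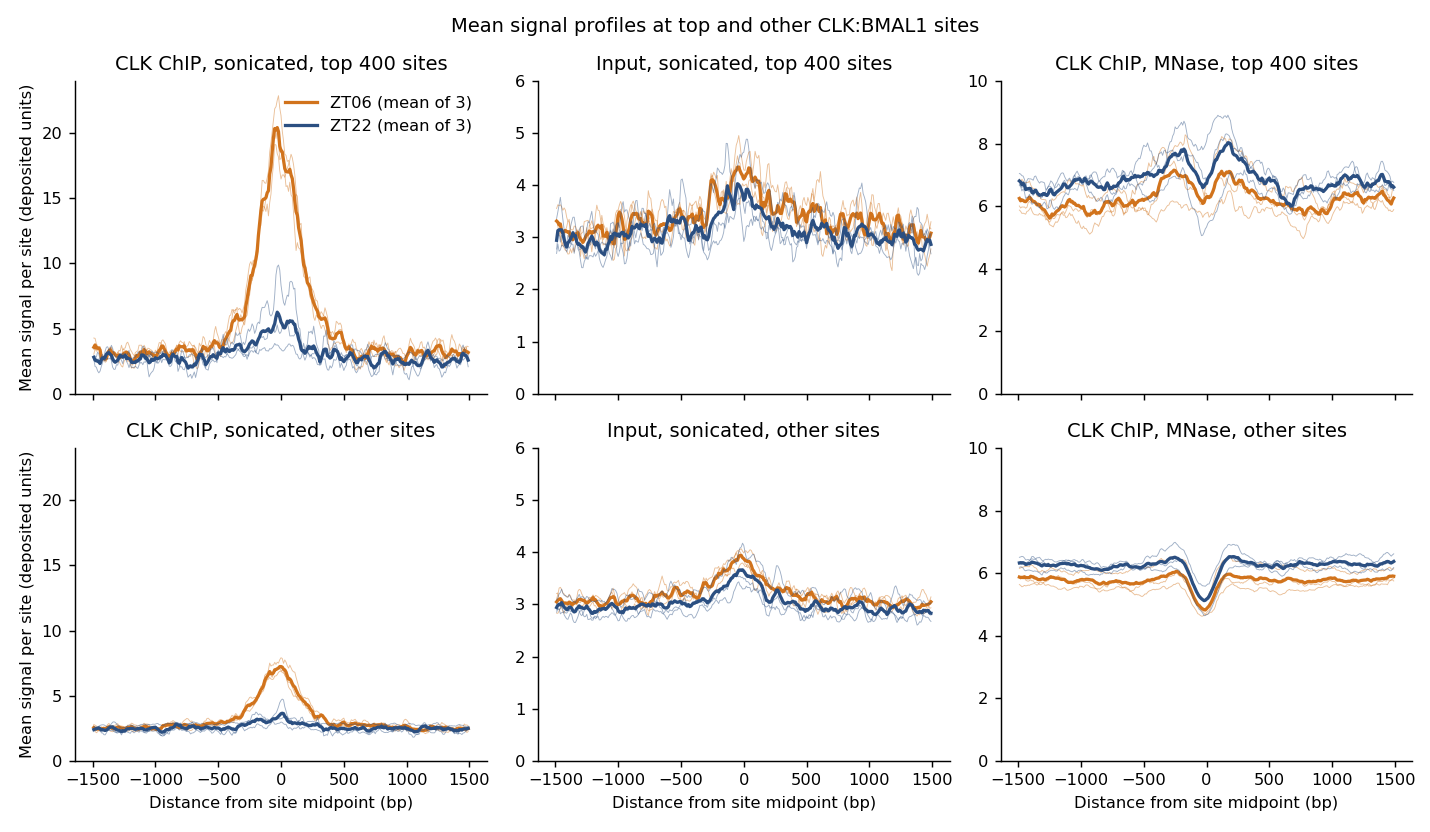
Mean signal per site in deposited units against distance from the site midpoint in bp, for 3 assays (columns) at the top 400 and the other sites (rows), with thin lines for libraries and thick lines for the mean of 3 at ZT06 and ZT22; the vertical scale differs between assays. Sonicated ChIP at ZT06 reaches 17.2 to 19.4 in the centre of the top sites against 6.25 to 7.40 at the other sites, and MNase-digested ChIP shows shoulders on either side of a dip.

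Measured against its own input, the ZT06 centre of the top sites was enriched by factors of 3.98, 4.31 and 4.56 in mice 28, 29 and 30. The mean log2 difference in centre to flanks was 2.10 ± 0.06 (SE), positive in 3 of 3 livers. An exact sign-flip test over these livers gave a two-sided p of 0.25, below which 3 pairs cannot go, and p = 0.32 after Benjamini-Hochberg adjustment over 9 tests. Limma was also applied to every position of the top profile, on a log2 scale relative to the flanks. At a Benjamini-Hochberg adjusted p under 0.05 it called 29.4% of positions, 29.1% higher in ChIP than in input and 0.334% lower, against 37.5% at the other sites, all higher. All 21 central positions were among the higher ones, and called positions were contiguous between 420 bp left and 360 bp right of the midpoint. Neighbouring positions share fragments, so these shares are not a number of separate findings. They depend on the spread as well as on the extent of a difference. The limma SE at the midpoint was 0.23 at the top sites and 0.11 at the other sites. A lower share at the top sites, here and below, is therefore not read as a narrower or smaller difference. The fold over input at the other sites was 2.08, 2.11 and 2.24.

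At ZT22 the top sites had a central CLK signal above input in each liver, by amounts that varied from liver to liver. Centre to flanks was 1.93, 1.28 and 3.06 in mice 28, 29 and 30 (2.09 ± 0.90, SD). Over the own input this was 1.39-fold, 1.06-fold and 2.43-fold. Mouse 29 was thus nearly level with its input, and mouse 30 reached more than the other sites had in any liver at ZT06 (2.24-fold). On the deposited scale, the midpoint signal of mouse 30 was 8.34 (95% Poisson interval 7.52 to 9.23), against 4.74 (4.37 to 5.13) in mouse 28 and 3.42 (3.27 to 3.57) in mouse 29.

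The mean log2 difference between ChIP and input at ZT22 was 0.61 ± 0.35 (SE), again positive in 3 of 3 livers (exact sign-flip test, two-sided p = 0.25, adjusted 0.32). Without the ZT22 ChIP libraries of mouse 30 it was 0.28, and with mouse 29 left out instead it was 0.88. Limma called 0% of positions at the top sites, with 25.1% at an unadjusted p under 0.05, and 0% at the other sites, with 11.4% unadjusted. Without the ZT22 ChIP libraries of mouse 30 the shares at the top sites were 0% and 12.4%. The ZT22 fold over input at the other sites was 0.97, 1.00 and 1.27 in mice 28, 29 and 30. In livers 28 and 29, then, the other sites were level with their input, and the values above input, 1.39-fold and 1.06-fold, were those of the top sites.

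The amount above input that remained at ZT22 can be set against ZT06. For the top sites, centre to flanks minus that of the own input gave 4.42 ± 0.34 (SD, n = 3) for ZT06 and 0.80 ± 0.89 for ZT22, so 18.1% remained. For the other sites it was 1.43 ± 0.11 and 0.10 ± 0.20, so 6.74% remained. These shares rest on mouse 30: without its ZT22 libraries they were 6.89% and -1.33%.

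**Figure D3:**
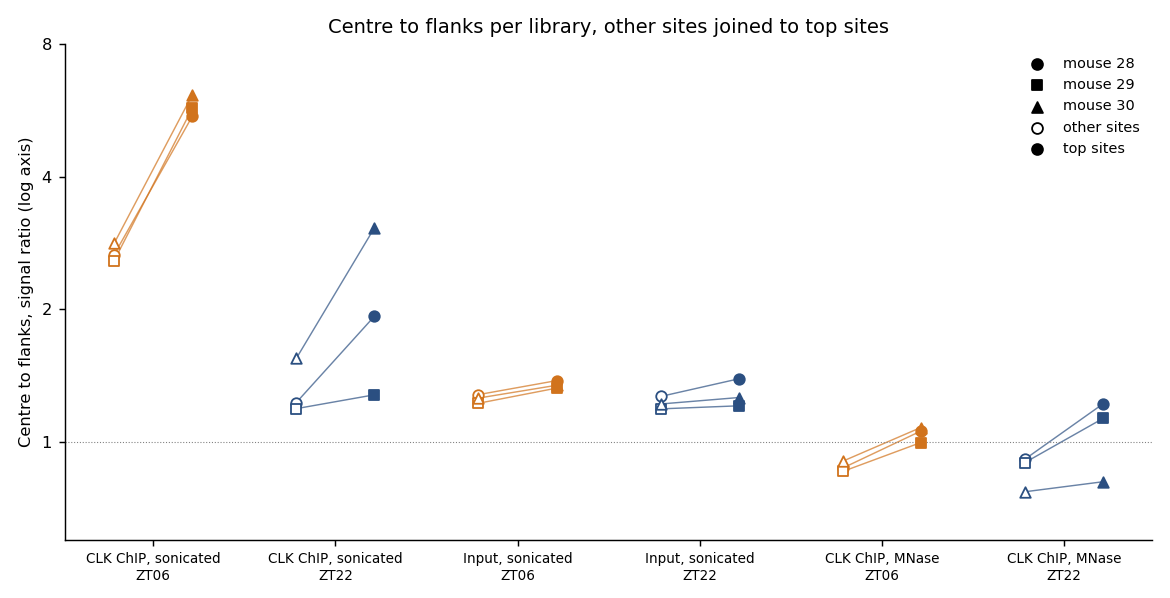
Ratio of centre to flanks for each library (log axis), with the other sites (open symbols) joined to the top sites (filled symbols) of the same library, by assay and time; symbols mark the mouse number. All 18 libraries are higher at the top than at the other sites, by the most in sonicated ChIP at ZT06 (5.48 to 6.13 against 2.58 to 2.82), and mouse 30 at ZT22 is highest in sonicated and lowest in MNase-digested ChIP.

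From ZT22 to ZT06 the top sites gained sonicated CLK signal at the centre. All 3 livers at ZT06 (5.48 to 6.13) lay above all 3 at ZT22 (1.28 to 3.06) in centre to flanks. The ratio was 2.94-fold higher at ZT06 (log2 difference 1.56 ± 0.37, SE). With groups of 3 an exact permutation test cannot give a two-sided p below 0.1, which is what it gave here (adjusted p = 0.30). Limma called 35.1% of positions, 33.1% higher at ZT06 and 2.01% lower, among them all 21 central positions. At the other sites it called 47.8%, 44.8% higher and 3.01% lower. At the midpoint of the top sites the log2 change was 1.60 ± 0.23 (SE, limma, adjusted p = 4.7e-06), and at the other sites 0.99 ± 0.11. Limma shares its spread over all 6 groups. In sonicated ChIP the SD of log2 centre to flanks at the top sites was 0.63 at ZT22 and 0.08 at ZT06. The SE from these 2 groups alone, 0.37 for the centre, was above limma's, so its p-value may be too low.

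Around the midpoint of the top sites, called positions were contiguous from 310 bp on its left to 390 bp on its right. Division by the flanks sets their mean near no change, so this fit does not bear on their level. It still called 11 of the 100 flank positions at the top sites and 12 at the other sites. On the deposited scale, where the level of a library is left in, limma called 53.8% of positions, all higher at ZT06, 28 of the 100 flank positions among them. With mouse 28 left out of every group, it called 22.7% relative to the flanks. Without the ZT22 ChIP libraries of mouse 30 the log2 difference in centre to flanks was 1.88, and limma called 39.1% of positions. With mouse 29 left out of every group these values were 1.25 and 32.8%. Whether any of these libraries helped to rank the sites is not known. If they did, the choice itself could raise the sonicated ZT06 signal of the top sites. The p-values of comparisons of this signal with input, ZT22 or MNase-digested ChIP could then be too low. A larger change at the top than at the other sites is likewise not read as a property of strong sites.

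The input of sonicated chromatin, made without antibody, had a slightly higher central value at the top sites than at the other sites in each liver. Centre to flanks at the top sites was 1.38, 1.32 and 1.34 in mice 28, 29 and 30 at ZT06 and 1.39, 1.21 and 1.26 at ZT22. The other sites had 1.28, 1.22 and 1.26 at ZT06 and 1.27, 1.19 and 1.22 at ZT22. The top sites were higher in 6 of 6 livers, by 1.06-fold (log2 difference 0.09 ± 0.02, SE). The exact sign-flip test gave a two-sided p of 0.03125, its lowest possible value for 6 livers, and 0.28 after adjustment over the 9 tests. With these group sizes none of the 9 tests could reach an adjusted p under 0.05. The adjusted value therefore decides nothing about this excess. The unadjusted p-value is limited as well, because the values that ranked the sites are not known. A ranking by ChIP signal without input subtracted could itself raise the input at the top sites. The size of the excess rested on where the flanks were taken: with flanks 500 to 1000 bp away the log2 difference was 0.03 ± 0.03 (exact sign-flip p = 0.41).

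The input excess was small beside that of CLK ChIP in the same livers at ZT06, and the groups of input libraries overlapped between the times of day. Between the times the input at the top sites had a log2 difference of 0.07 ± 0.06 (SE), with overlapping groups (two-sided exact permutation p = 0.4, adjusted 0.45). Limma called 0% of positions at the top sites and 0% at the other sites, and 0 had an unadjusted p under 0.05. The flanks of the input were at nearly the same level in both sets, the top sites being 1.03 ± 0.04 times the other sites at ZT06 and 1.01 ± 0.02 times at ZT22.

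In MNase-digested chromatin the mean profile of the top sites had a higher centre than that of the other sites. Over the other sites CLK ChIP dipped below the flanks: at ZT06 centre to flanks was 0.87, 0.86 and 0.90 in mice 28, 29 and 30. The top sites had 1.06, 1.00 and 1.08, so their centre stood at or slightly above the flanks. At ZT22 the other sites were at 0.91, 0.90 and 0.77, and the top sites at 1.22, 1.13 and 0.81. The top sites were thus higher than the other sites in 6 of 6 libraries, by a mean of 0.26 ± 0.05 on the log2 scale (SE), or 0.30 ± 0.03 without the ZT22 library of mouse 30. In mouse 30 at ZT22, whose centre was the lowest in both sets, this excess was 0.08, against 0.42 in mouse 28 and 0.33 in mouse 29.

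A dip between shoulders was present at the top sites too, on a raised base. The shoulders, 150 to 300 bp from the midpoint, stood at 1.13 ± 0.08 times the flanks at ZT06 and 1.15 ± 0.12 times at ZT22, against 1.02 ± 0.03 and 1.02 ± 0.06 at the other sites. The ZT22 values of the top sites were 1.23, 1.20 and 1.02 in mice 28, 29 and 30. The centre was below the shoulders in 6 of 6 libraries at the top sites, with ratios from 0.80 in mouse 30 at ZT22 to 0.99 in mouse 28 at ZT22. For the other sites this ratio was steadier, between 0.81 and 0.86. Within 100 bp of the midpoint, smoothed over 5 positions, the lowest signal of the top sites was 1.01, 0.98 and 1.00 times the flanks at ZT06, and 1.16, 1.06 and 0.75 at ZT22.

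The shoulder maxima of the top sites lay 170 to 290 bp to the left and 110 to 290 bp to the right of the midpoint. The distance between both maxima ranged from 300 to 480 bp over the 6 libraries. MNase-protected pieces of this kind are nucleosomal in length by design, so the shoulders mark where such pieces were recovered most. The part of CLK in this shape was not tested, because MNase-digested input is not among the samples analysed here.

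**Figure D4:**
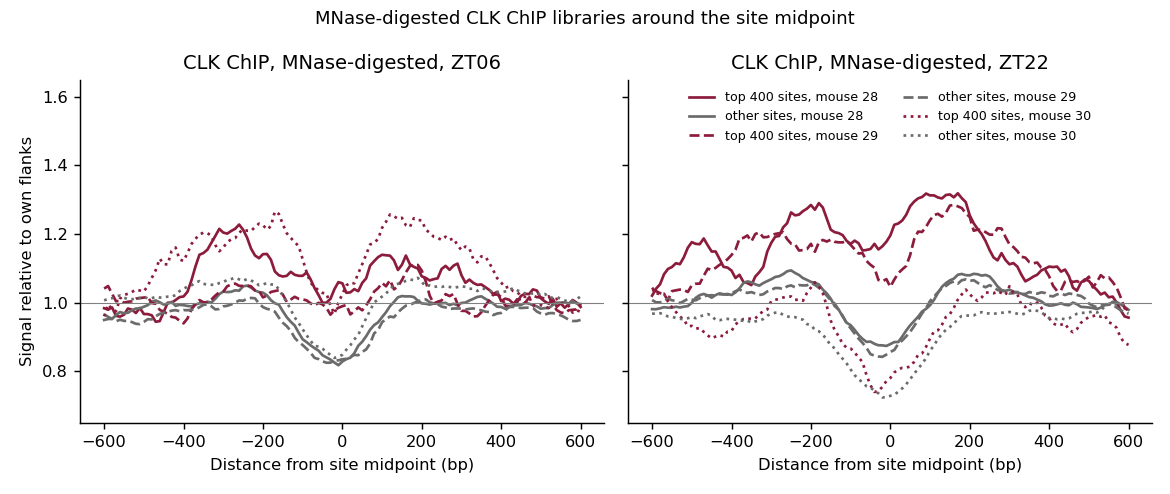
Signal relative to the library's own flanks within 600 bp of the site midpoint in MNase-digested CLK ChIP, one line per library, for the top 400 sites (dark red) and the other sites (grey), at ZT06 (left) and ZT22 (right). All libraries dip near the midpoint; the top sites dip to about the level of the flanks at ZT06, and mouse 30 at ZT22 dips to 0.75 while mice 28 and 29 stay above 1.

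Between ZT06 and ZT22 the MNase-digested centre of the top sites did not differ beyond the spread of the livers. The log2 difference was 0.01 ± 0.18 (SE; two-sided exact permutation p = 1, adjusted 1). The groups overlapped, with the ZT06 livers lying between the lowest and the highest ZT22 liver. The sign of the difference rested on mouse 30: without its ZT22 libraries the difference was -0.17 ± 0.06, that is, lower at ZT06 than at ZT22. The groups then did not overlap, with ZT06 at 1.06, 1.00 and 1.08 and ZT22 at 1.22 and 1.13. The two-sided exact permutation p was 0.2, the lowest for these group sizes. Limma called 0% of positions, and 0 had an unadjusted p under 0.05, also without these libraries. Its midpoint log2 value without them was -0.13 ± 0.15 (SE), so a change of this size was within its error. All 6 livers lay between 0.81 and 1.22, a narrower range than the step between the times in sonicated chromatin.

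Both ways of cutting the chromatin gave different profiles of the top sites at ZT06. Relative to the flanks, the centre of the MNase-digested profile lay below that of the sonicated one from the same livers (log2 difference -2.47 ± 0.05, SE; lower in 3 of 3 livers; exact sign-flip p = 0.25, adjusted 0.32). Limma called 32.4% of positions, all lower in MNase-digested chromatin, contiguous between 440 bp left and 390 bp right of the midpoint, and 48.5% at the other sites. At ZT22 the difference was -0.92 ± 0.52 (lower in 3 of 3 livers; exact sign-flip p = 0.25, adjusted 0.32), ranging from -0.18 in mouse 29 to -1.91 in mouse 30. Without mouse 30 it was -0.42, and without mouse 29 it was -1.29. Limma called 9.7% of positions at ZT22, all lower, including a run between 170 bp left and 110 bp right, and 16.4% at the other sites. Without the ZT22 ChIP libraries of mouse 30 it called 0% at the top sites, with 10.0% at an unadjusted p under 0.05.

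By limma, which did not pair the libraries of a liver, the change of the top sites over time differed between MNase-digested and sonicated chromatin. Going from ZT22 to ZT06, the log2 difference between MNase-digested and sonicated centres changed by -1.55 ± 0.52 (SE), with all 3 livers at ZT06 below all 3 at ZT22 (two-sided exact permutation p = 0.1, the lowest for this design, adjusted 0.30). By limma's test of the difference between the time effects, 23.1% of positions differed, all in this direction, among them all 21 central positions. The share at the other sites was 32.1%. With mouse 28 left out of every group it was 4.01% at the top sites, and 4 of the 21 central positions were called. The midpoint log2 value was then -1.499 (limma, Benjamini-Hochberg adjusted p = 0.084), against -1.55 with all libraries (adjusted p = 0.000686). Without the ZT22 ChIP libraries of mouse 30 the share of positions called was 31.1%, and the change in the log2 difference was -2.05. With mouse 29 left out of every group these values were 17.4% and -1.15.

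**Figure D5:**
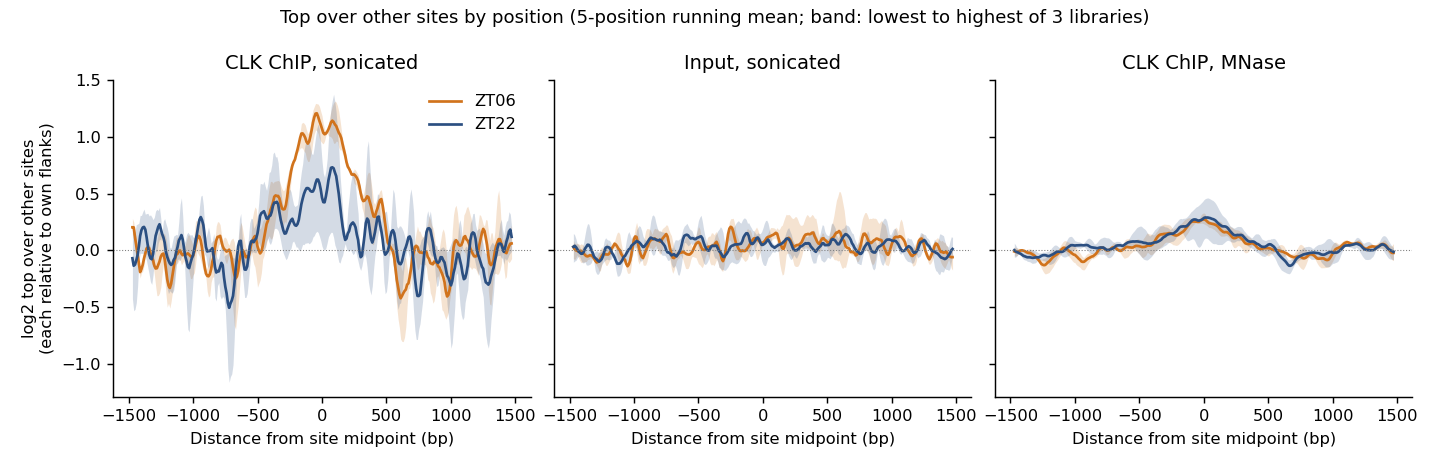
Log2 ratio of the top 400 to the other sites, each relative to its own flanks, against distance from the site midpoint in bp, for 3 assays; lines are means of 3 libraries at ZT06 and ZT22, smoothed over 5 positions, and bands span the lowest to the highest library. At ZT06 the sonicated ChIP excess at the centre is 1.10, the MNase-digested excess 0.25 and the input excess 0.11 on the log2 scale.

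Side by side, the excess of the top over the other sites in centre to flanks, as a log2 difference at ZT06, was 1.10 ± 0.06 in sonicated ChIP, 0.25 ± 0.03 in MNase-digested ChIP and 0.11 ± 0.01 in input (SD, n = 3). At ZT22 it was 0.58 ± 0.44, 0.28 ± 0.18 and 0.07 ± 0.06. In sonicated ChIP the ZT22 values were 0.65, 0.10 and 0.98 in mice 28, 29 and 30, so mouse 29 was within the range of the inputs (0.02 to 0.13). The order of the assays was the same at both times by their means.

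At ZT06 the top sites carried a large share of the summed central signal in sonicated CLK ChIP, with input not subtracted. The central signal above the flanks, summed over sites, came from the top 400 to 32.9, 34.9 and 32.5% in mice 28, 29 and 30 at ZT06, where they are 12.4% of the sites. At ZT22 the shares were 39.3, 17.6 and 36.5%. In the inputs they were 13.8 to 17.8%, a range that holds the ZT22 share of mouse 29. The other sites of mice 28 and 29 were level with input at ZT22, so the ZT22 shares are not shares of CLK signal alone. The flanks were raised as well: in sonicated ChIP at ZT06 the flank signal of the top sites was 1.28, 1.26 and 1.21 times that of the other sites, against 1.12, 1.03 and 1.07 times at ZT22. The centre itself, without division by the flanks, was 2.68 ± 0.10 times as high at the top sites at ZT06 and 1.66 ± 0.52 times at ZT22, where it was 1.76, 1.10 and 2.12 times in mice 28, 29 and 30.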

How the data were processed

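CLK ChIP and input libraries of mouse liver were analysed from 2 deposited tables. The authors deposited mean profiles in a unit of signal, 299 values per library and set of sites; no source used here gives its scaling. The build mm9, CASAVA 1.7 and Bowtie are named in the submitters' processing notes. From the profile table, 16 of 52 rows (8 libraries, by name MNase-digested inputs without a matching sample title) were not used here. A spacing of 10 bp with the midpoint in the middle was assumed for the positions; no source states it.

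Centre (21 positions within 100 bp), shoulders (32, 150 to 300 bp) and flanks (100, at least 1000 bp) were averaged per library, and log2 ratios were compared with exact two-sided permutation tests, or sign-flip tests within a liver, adjusted by Benjamini-Hochberg over 9 tests. Limma 3.58.1 (R 4.3.3) was fitted to log2 signal relative to own flanks in all 18 libraries, 6 groups, without a block, after a check on simulated data. The simulated libraries were independent and had the same spread in every group. That check therefore does not cover the wider spread of sonicated ChIP at ZT22 or libraries from the same liver. NumPy 2.4.6 and SciPy 1.17.1 were used. The design foresaw tests on windows and positions, since no value per site is given. Sites were named by a rule: the 5 lowest numbers, and the widest and narrowest of the first 400. The set, windows and lists were chosen with earlier results of these data known. ChIP and input with the same number and time came from the same liver, which the series design text states for both kinds of chromatin. Alternatives covered windows, scale, pairing and libraries left out.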

Additional observations from a re-analysis of the deposited data

Results flagged for a closer look

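The time effect at the top 400 sites was flagged because it differed between both kinds of chromatin: limma's test of the difference between the time effects called 69 positions, 23.1% of the profile, all in the same direction. Without mouse 28 it called 12, or 4.01%. Limma did not pair the libraries of a liver. The exact permutation test on paired differences gave a two-sided p of 0.1, the lowest for this design (adjusted 0.30). Sonicated ChIP had a log2 difference in centre to flanks of 1.56 ± 0.37 (SE) between ZT06 and ZT22, and MNase-digested ChIP 0.01 ± 0.18. The sonicated groups did not overlap, whereas the MNase-digested ones did. Groups of 3 libraries are too small for the rule on single outlying samples, so no library was flagged by it.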

How the results depend on the processing

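All but 6 of the alternative values kept their direction and, for shares of positions called, stayed within 1.5 times the main share. The difference between ZT06 and ZT22 in MNase-digested ChIP at the top sites reversed to -0.17 without the ZT22 ChIP libraries of mouse 30, an alternative added after seeing the data; leaving out each mouse number in turn gave -0.19 to 0.11. Without those libraries limma called 39.1% of positions for the times in sonicated ChIP and 31.1% for the difference of the time effects. It called 53.8% for the times on the deposited scale against 35.1%, and 22.7 to 34.4% with a number left out. For the difference of the time effects it called 56.5% against 23.1%, and 4.01 to 26.1%, in both cases the fewest without mouse 28. The cause was not tested. With mouse number as a replicate block, limma called 35.5% of positions for sonicated ChIP, 0% for MNase-digested ChIP and 23.1% for the difference, so the block moved each share by less than 1.5 times, and the paired comparison of times in sonicated ChIP remained at 1.56 (exact sign-flip test, p = 0.25). The numbers did not pair the times: 2 of 9 same-number pairs of deviations correlated above 0.1, from -0.54 to 0.13. The excess of the top over the other sites in input was 0.03 with flanks 500 to 1000 bp away, against 0.09. The MNase-sonicated difference without pairing was -2.47 at ZT06. Sonicated ChIP varied most at ZT22, whereas limma shares its spread over groups, so its calls there are less certain. The shallowest library rests on 375 fragments at the midpoint.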

Other observations

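Sonicated ChIP profiles of the top sites leaned to the left, although the sites have no stated orientation. The left shoulder was 1.12, 1.15 and 1.14 times the right in mice 28, 29 and 30 at ZT06, and 1.21, 1.02 and 1.21 times at ZT22. The other sites leaned the same way, by 1.13, 1.14 and 1.09 times at ZT06. In MNase-digested ChIP the ratio at the top sites lay between 0.96 and 1.06, and in the inputs between 0.95 and 1.14. The cause was not tested.

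Over the first 400 site numbers, chromosome 1 held 35, or 17.8% of its listed sites, chromosome 15 held 26, or 16.99%, and chromosome 11 held 40, or 16.1%. Chromosome 13 held 8 of 130 (6.15%). Over all listed sites the share is 12.4%. These shares were picked out after the counts had been seen.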
